A study of Homo sapiens with 4 samples.

Results

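IL12A encodes the p35 chain of interleukin-12, and IL12A-AS1 is a long noncoding RNA gene annotated on the opposite strand of the same locus. They were picked by their gene names, 2 of the 24940 genes listed in a table of RNA-seq counts and FPKM from MOLM-13, a human acute myeloid leukaemia line of monocytic type that carries a KMT2A fusion. Both were chosen by their log2 ratios between libraries in earlier results of these data, so the levels and ratios given here are a description and carry no test. All cells were infected with lentiviruses, drug-selected and treated with doxycycline to induce short hairpins; the labels give 72 h of doxycycline for the Western blot check of the knockdown and no separate time for the RNA. The groups were sh-c-Myc_sh-Bcl2 (hairpins against c-Myc and Bcl-2, called the double knockdown), sh-c-Myc, sh-Bcl2 and shControl (a negative control hairpin). Each of the 4 groups held 1 library, so no difference has a replicate check. The labels do not say whether the cells were a pool or a single clone.

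Interleukin-12 is a secreted heterodimer of p35 and p40, the product of IL12B, and activated monocytes, macrophages and dendritic cells are its main source. The p35 chain also pairs with EBI3 to form interleukin-35, while p40 pairs with the IL23A product to form interleukin-23. Interleukin-12 acts on T cells and natural killer cells through the receptor chains IL12RB1 and IL12RB2, which signal through TYK2, JAK2 and STAT4 towards interferon-gamma. In myeloid cells p35 transcription is induced through Toll-like receptors, NF-kB and interferon regulatory factors.

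In GENCODE 29 (GRCh38) IL12A (ENSG00000168811) lies on chromosome 3 from 159988750 to 159996019 on the plus strand. IL12A-AS1 (ENSG00000244040) runs on the minus strand from 159909382 to 160225299, spans 315918 bases and holds the whole of IL12A within its limits. Merged exons come to 2040 bases for IL12A and 8073 bases for IL12A-AS1, and these are also the lengths that the deposited FPKM values imply. The exons of the 2 genes overlap over 78 bases, 3.82% of the IL12A exons and 0.966% of those of IL12A-AS1. All 78 lie in the coding part of IL12A exon 1, chr3:159989097-159989174. The start of the IL12A reading frame, from the first base of the start codon at 159989057 to the end of exon 1, is shown because reads from the stretch in capitals, the overlap, could come from either gene. It is written 5′ to 3′ on the plus strand from the GENCODE 29 transcript IL12A-201.
IL12A-201: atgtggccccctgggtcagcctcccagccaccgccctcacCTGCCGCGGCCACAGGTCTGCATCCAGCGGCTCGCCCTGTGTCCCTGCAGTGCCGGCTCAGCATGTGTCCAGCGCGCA

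Libraries held 14421558 to 15691129 counts over the listed genes, and levels are CPM, TMM-scaled counts per 1000000. A gene was called higher or lower at a ratio of 2-fold or more whose 95% counting interval left out 1. Calls were made for the 13646 genes with 1 CPM in some library, both members among them. Called in either direction were 13.1% of these in the double knockdown, 22.4% in sh-c-Myc and 4.61% in sh-Bcl2, each against shControl. BCL2 was at 44.5 CPM in the double knockdown and 38.7 CPM in sh-Bcl2, against 120 CPM in shControl. MYC was at 302 CPM in the double knockdown and 278 CPM in sh-c-Myc, against 434 CPM in shControl, so neither library with the c-Myc hairpin had as much as a 2-fold lower MYC RNA. All 12 markers listed for the line were above 1 CPM in some library, with summed levels of 2920, 3040, 1620 and 1360 CPM in the double knockdown, sh-c-Myc, sh-Bcl2 and shControl. That sum was higher where IL12A was lower, but not every marker followed it. KMT2A, at 48.5, 44.4, 65.7 and 60.0 CPM, and MEIS1, at 25.5, 27.2, 29.2 and 38.2 CPM in the same order, went the other way. HOXA9 did not split by the c-Myc hairpin, and the remaining markers were higher in both libraries that carried it. The part of this sum in the IL12A level was not tested. Of 10 markers of dendritic cells, another cell type that makes p35, 1 passed 1 CPM, the transcription factor gene BATF3; the list summed to 5.25, 8.34, 15.9 and 24.0 CPM in the same order. Of 6 T cell markers 1, TRAC, passed 1 CPM, with 78 counts in the double knockdown, 78 in sh-c-Myc, 281 in sh-Bcl2 and 76 in shControl, and the list summed to 4.99, 5.00, 18.6 and 5.39 CPM. Markers of B cells summed to at most 5.26 CPM, of erythroid cells to 0.577 CPM, of megakaryocytes to 1.60 CPM and of fibroblasts to 0.704 CPM. The NK cell list summed to 262 to 316 CPM, nearly all of it from NCAM1 and NKG7, while KLRD1 had at most 1 count and GNLY at most 3. Brackets hold 95% intervals, which reflect counting error alone.

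IL12A was lower in both libraries that carried the c-Myc hairpin. It had 9 counts in the double knockdown, 6 in sh-c-Myc, 46 in sh-Bcl2 and 46 in shControl, which is 0.576 CPM [0.263 to 1.09], 0.385 CPM [0.141 to 0.838], 3.04 CPM [2.22 to 4.05] and 3.26 CPM [2.39 to 4.36]. The pair of low intervals overlapped each other, the pair of high intervals overlapped each other, and neither low interval reached a high one. Against shControl IL12A was 5.43-fold lower [2.74 to 13.2] in the double knockdown and 7.92-fold lower [3.61 to 24.3] in sh-c-Myc. The log2 ratio of sh-Bcl2 to shControl was -0.10 [-0.73 to 0.52]. Set against sh-Bcl2, the double knockdown was 5.05-fold lower [2.55 to 12.3] and sh-c-Myc 7.37-fold lower [3.36 to 22.6]. Between the double knockdown and sh-c-Myc the log2 ratio was 0.54 [-1.07 to 2.35], so a difference between them was not detectable at this depth. The log2 ratio of the double knockdown to shControl exceeded the summed ratios of both single knockdowns by 0.65 [-0.91 to 2.20], a departure from additivity whose interval includes 0. Of all genes tested, 5.99% were called lower in the double knockdown and 9.86% in sh-c-Myc against shControl. Relative to sh-Bcl2, 8.84% of all genes were called in the double knockdown (3.63% lower and 5.21% higher) and 19.7% in sh-c-Myc (8.24% lower). Scaling moves such shares: of the calls in sh-c-Myc against shControl, 71.0% were higher with total counts and 55.9% with TMM, and the median log2 ratio of genes that average 50 counts or more was 0.08 and -0.10. In these bulk libraries, fewer cells with IL12A RNA and less IL12A RNA per cell cannot be told apart.

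IL12A-AS1 was higher in 1 library, sh-c-Myc. It had 307 counts in the double knockdown, 950 in sh-c-Myc, 325 in sh-Bcl2 and 263 in shControl, or 19.6 CPM [17.5 to 22.0], 60.9 CPM [57.1 to 64.9], 21.5 CPM [19.2 to 23.9] and 18.7 CPM [16.5 to 21.1]. The sh-c-Myc interval stood clear of the other 3, which overlapped one another. IL12A-AS1 was 3.26-fold higher in sh-c-Myc than in shControl [2.84 to 3.76] and 2.84-fold higher than in sh-Bcl2 [2.50 to 3.23]. The double knockdown was 3.10-fold lower than sh-c-Myc [2.73 to 3.54], and its log2 ratio to shControl was 0.07 [-0.17 to 0.32]. The sh-Bcl2 library stood at a log2 ratio of 0.20 to shControl [-0.04 to 0.44]. The departure from additivity was -1.83 [-2.13 to -1.53], and 388 of the 13646 genes had a lower one. Of all genes tested, 12.5% were called higher in sh-c-Myc relative to shControl and 11.4% relative to sh-Bcl2. Relative to sh-c-Myc, 6.36% were called in the double knockdown, 4.7% lower and 1.66% higher.

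**Figure D1:**
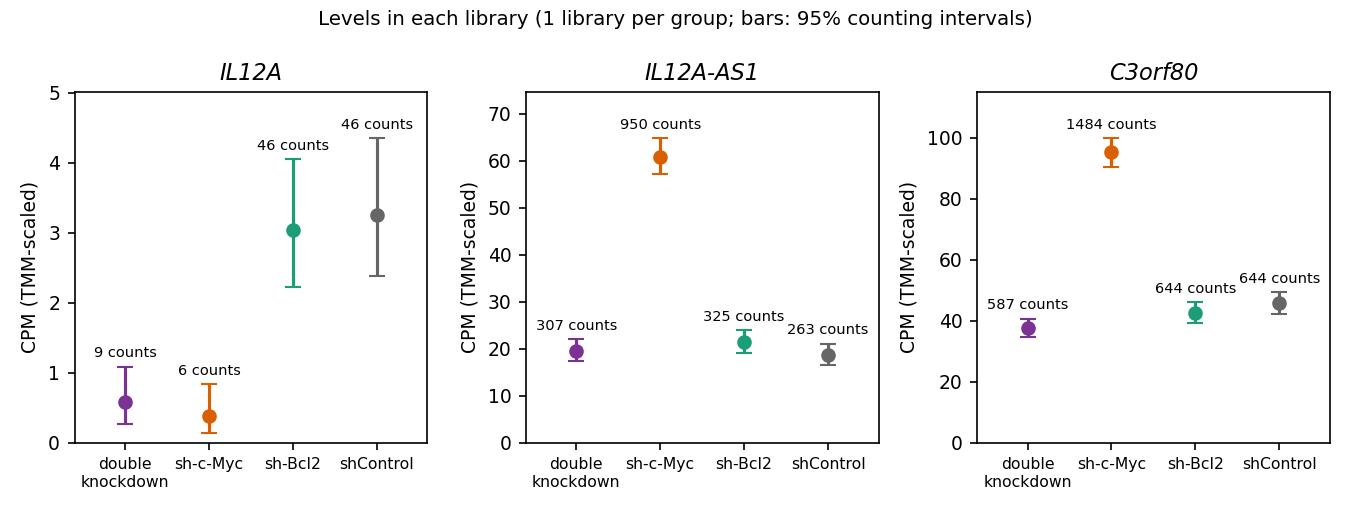
Levels of IL12A, IL12A-AS1 and the neighbouring gene C3orf80 in CPM (y axis, from 0) in each of the 4 libraries (x axis); points are single libraries, bars are 95% counting intervals and the raw counts are printed above them. IL12A is low in both libraries with the c-Myc hairpin, at 9 and 6 counts, while IL12A-AS1 and C3orf80 are high in sh-c-Myc, at 950 and 1484 counts.

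**Figure D2:**
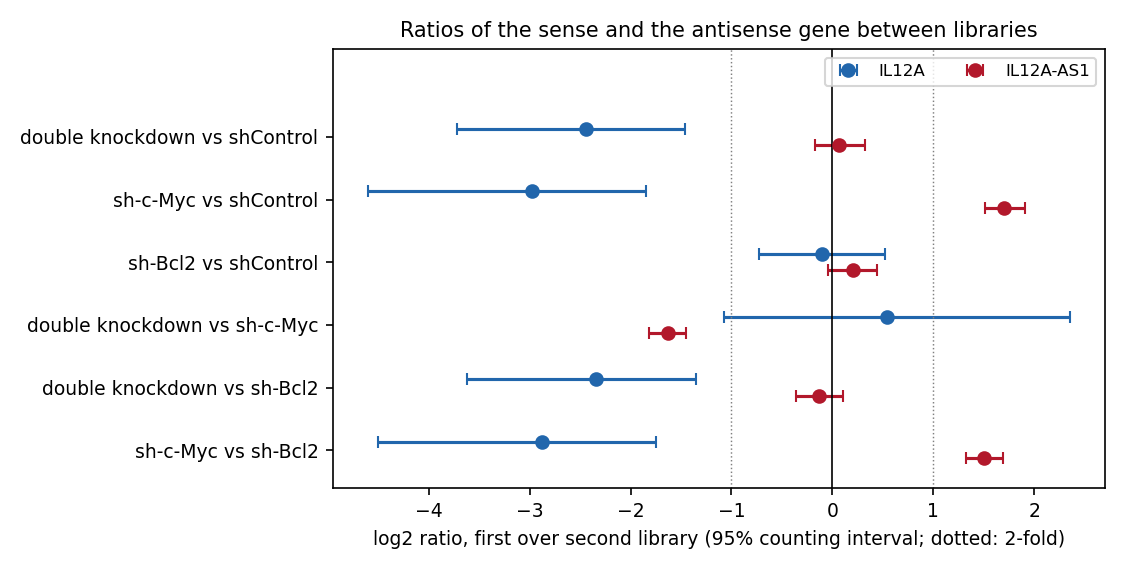
Log2 ratios of IL12A (blue) and IL12A-AS1 (red) for the 6 pairs of libraries, the first named over the second, with 95% counting intervals and dotted lines at 2-fold. The genes lie on opposite sides of 0 in sh-c-Myc against shControl, at -2.98 and 1.70; for the double knockdown over shControl IL12A lies at -2.44 and IL12A-AS1 at 0.07.

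The balance between antisense and sense counts within a library needs no scaling between libraries. There were 34.1 IL12A-AS1 counts per IL12A count in the double knockdown, 158 in sh-c-Myc, 7.07 in sh-Bcl2 and 5.72 in shControl. Per length, as a ratio of FPKM, these were 8.62, 40.0, 1.79 and 1.44. The antisense gene was thus above the sense gene in every library also after correction for its longer exons, with FPKM for IL12A-AS1 and IL12A of 8.16 and 0.204 in sh-c-Myc and of 2.20 and 1.52 in shControl. IL12A made up 2.85% of the summed counts of both genes in the double knockdown [1.31 to 5.34], 0.628% in sh-c-Myc [0.231 to 1.36], 12.4% in sh-Bcl2 [9.22 to 16.2] and 14.9% in shControl [11.1 to 19.4] (Clopper-Pearson intervals). The antisense-to-sense ratio was 5.71-fold higher in the double knockdown than in shControl [2.79 to 11.7] and 25.8-fold higher in sh-c-Myc than in shControl [11.2 to 59.3]. It was 4.52-fold lower in the double knockdown than in sh-c-Myc [1.65 to 12.4]. The sources used here do not give the strand setting of the count step, and the NEBNext Ultra RNA kit named in the labels does not mark strand. Reads of IL12A and IL12A-AS1 in the 78 shared bases therefore cannot be told apart. The limit is wider than these bases, because all of IL12A lies within the IL12A-AS1 span. Reads of unspliced IL12A-AS1 RNA over IL12A exons could count as IL12A. Reads of unspliced IL12A RNA over the IL12A-AS1 exon at chr3:159994237-159994305, inside an IL12A intron, could count as IL12A-AS1. The share of such reads was not measured.

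Of 10 listed genes with a start within 500 kb of the IL12A start, 7 passed 1 CPM. C3orf80, an open reading frame gene with no role stated here, is the closest partner of IL12A-AS1. It lies on chromosome 3 from 160225496 to 160228213 on the plus strand, head to head with IL12A-AS1, whose outermost annotated start is 197 bases away. C3orf80 had 587 counts in the double knockdown, 1484 in sh-c-Myc, 644 in sh-Bcl2 and 644 in shControl, or 37.6, 95.2, 42.5 and 45.7 CPM. Its order of libraries matched that of IL12A-AS1 in having sh-c-Myc apart from the rest. It was 2.08-fold higher in sh-c-Myc than in shControl (log2 ratio 1.06 [0.92 to 1.19]) and 2.53-fold lower in the double knockdown than in sh-c-Myc [2.30 to 2.79], with a departure from additivity of -1.24 [-1.45 to -1.03]. There were 0.523, 0.640, 0.505 and 0.408 IL12A-AS1 counts per C3orf80 count in the double knockdown, sh-c-Myc, sh-Bcl2 and shControl. Some 9.90% of the C3orf80 exons overlap another gene of the annotation.

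Further away, IFT80, an intraflagellar transport gene 411 kb from the IL12A start, had 221 counts in the double knockdown, 312 in sh-c-Myc, 130 in sh-Bcl2 and 106 in shControl. It was called higher in sh-c-Myc against shControl at a log2 ratio of 1.41 [1.09 to 1.74] and stood at 0.91 [0.57 to 1.26] in the double knockdown, though 35.7% of its exonic bases are shared with other genes. SCHIP1, on the other side of IL12A at 149 kb, had 61, 90, 81 and 77 counts in the double knockdown, sh-c-Myc, sh-Bcl2 and shControl. The intervals of its levels overlapped, while its log2 ratio of the double knockdown to sh-c-Myc was -0.56 [-1.06 to -0.08], not called. The condensin gene SMC4 stood at log2 ratios of -0.14 in the double knockdown, -0.25 in sh-c-Myc and 0.14 in sh-Bcl2 to shControl, and the ubiquitin ligase gene TRIM59 at -0.46, -0.60 and -0.22. Among these 7 genes, IL12A was called lower, and IL12A-AS1, C3orf80 and IFT80 were called higher, in sh-c-Myc against shControl. None of the other 3 was called in any of the 6 comparisons. Of all genes 12.5% were called higher and 9.86% lower in sh-c-Myc against shControl. IL12A and IL12A-AS1 were chosen by these ratios, and with 7 genes nothing is read from the number of calls.

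**Figure D3:**
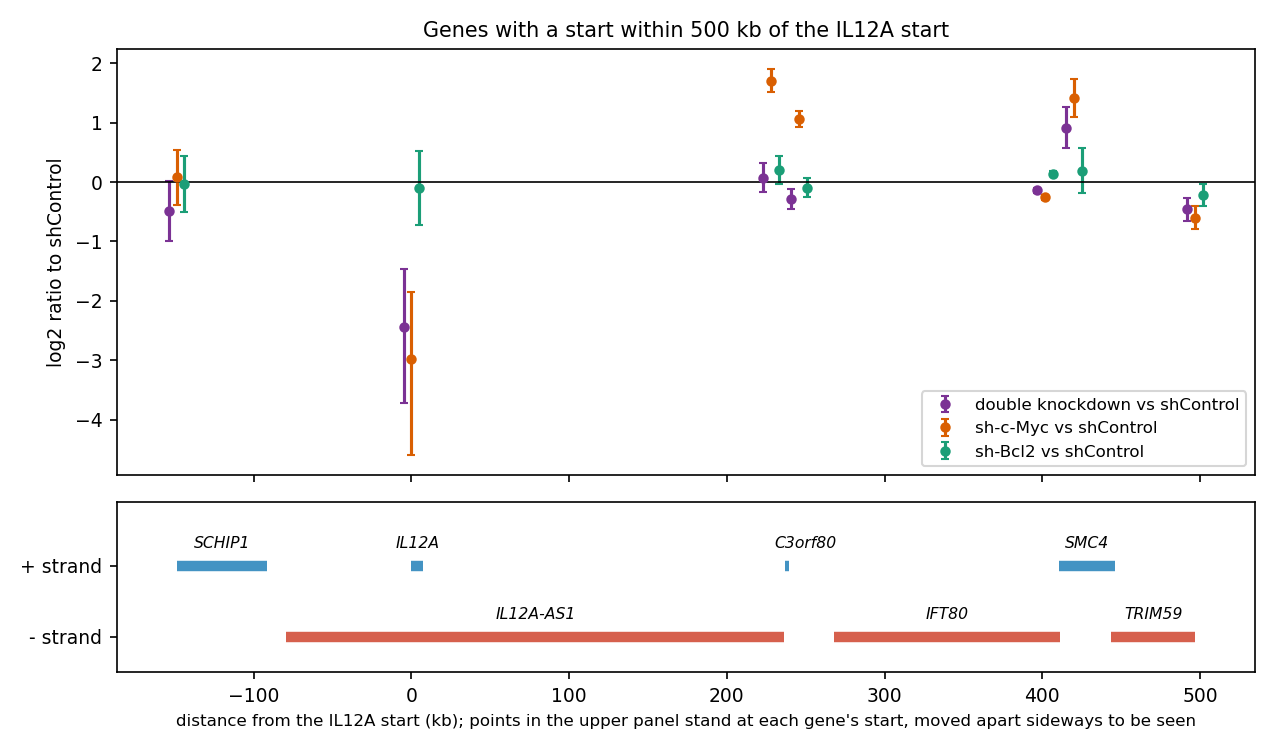
Upper panel, log2 ratios to shControl (y axis) with 95% counting intervals for the 7 genes above 1 CPM whose start lies within 500 kb of the IL12A start (x axis, kb), for the double knockdown, sh-c-Myc and sh-Bcl2; lower panel, the span of each gene by strand. IL12A lies inside IL12A-AS1 and has the opposite sign in sh-c-Myc, while IL12A-AS1 and C3orf80, whose starts face each other, stand at 1.70 and 1.06.

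Sequences at the starts are shown because both genes with facing starts were high in the same library while the gene inside IL12A-AS1 was low there. They are from RefSeq (GRCh38.p14), 5′ to 3′ on the strand of the named gene. The C3orf80 stretch is chr3:160225172-160225421 on the plus strand, up to the RefSeq start; the 128 bases in lower case lie in the first exon of the IL12A-AS1 transcript IL12A-AS1-202, and the 122 capitals lie between both starts. The IL12A-AS1 stretch is chr3:160207093-160207342 on the minus strand, before the RefSeq start. That start is also that of IL12A-AS1-203 and is not the one that faces C3orf80. Capitals mark a CCAAT box, which 34.6% of 35116 RefSeq promoters hold on either strand. The IL12A stretch is chr3:159988585-159988749 on the plus strand, up to the GENCODE start; capitals mark overlapping matches on both strands to an NF-kB-like pattern (GGG, any 5 bases, then CC), found in 58.7% of promoters. In the 300-base windows this pattern had 7 matches at IL12A, 2 at C3orf80, 1 of them within the printed stretch and not marked, and 0 at IL12A-AS1.
C3orf80: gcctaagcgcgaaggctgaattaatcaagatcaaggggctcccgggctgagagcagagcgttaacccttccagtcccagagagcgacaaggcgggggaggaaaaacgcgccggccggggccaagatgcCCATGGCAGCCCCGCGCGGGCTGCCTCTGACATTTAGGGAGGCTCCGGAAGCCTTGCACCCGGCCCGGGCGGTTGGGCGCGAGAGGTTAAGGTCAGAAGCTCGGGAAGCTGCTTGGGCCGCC
IL12A-AS1: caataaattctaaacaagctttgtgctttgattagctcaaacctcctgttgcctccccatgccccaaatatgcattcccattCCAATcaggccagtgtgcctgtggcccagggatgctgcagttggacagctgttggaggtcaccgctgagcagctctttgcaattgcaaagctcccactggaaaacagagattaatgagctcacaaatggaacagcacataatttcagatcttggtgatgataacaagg
IL12A: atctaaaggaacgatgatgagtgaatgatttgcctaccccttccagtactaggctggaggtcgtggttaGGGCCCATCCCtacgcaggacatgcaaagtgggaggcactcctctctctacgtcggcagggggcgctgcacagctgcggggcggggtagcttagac

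The bases before the IL12A-AS1 RefSeq start held 46.8% G and C and 1 CG dinucleotide, and those before the C3orf80 start 65.6% and 21. The median G and C content of all RefSeq promoters over the same 250 bases was 58.0%. That IL12A-AS1 start is at 160207092, while the IL12A-AS1 start that faces C3orf80 is at 160225299. The bases before the facing start are the capitals printed for C3orf80, so these values do not set the facing starts against each other. The counts are per gene, so which of the IL12A-AS1 starts was in use in these cells was not measured. Within 300 bases around each of the 3 RefSeq starts, the MYC and MAX E-box CACGTG, which 7.26% of promoters hold, had 0 matches, as had the AP-1 pattern TGANTCA. An interferon-stimulated response element (GAAA, any 2 bases, then GAAA, on either strand) occurred once, at the IL12A start on the minus strand. It is found in 3.57% of promoters, and it is shown, in capitals, because it is the type of site that interferon regulatory factors bind (chr3:159988826-159988855, plus strand).
IL12A start: actgcgaacaTTTCGCTTTCattttgggcc

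IL12A-AS1 is 1 of 655 genes of the antisense type above 1 CPM. In sh-c-Myc against shControl 217 of these (33.1%) were called higher and 34 (5.19%) lower, beside 12.5% and 9.86% of all genes. Their median log2 ratio was 0.65, where the median over all genes tested was -0.023. Genes passed at 1 CPM in any 1 library, so low genes could enter through sh-c-Myc alone. That can raise the median and the share called higher, by an amount not measured. The 512 lincRNA genes tested, under the same filter, had a median of 0.77 and 38.7% called higher, so the shift was not limited to antisense genes. IL12A-AS1 stood at 1.70, and 109 of the class stood above it. With no filter, all listed antisense genes took 0.300% of all counts in the double knockdown, 0.413% in sh-c-Myc, 0.259% in sh-Bcl2 and 0.248% in shControl. In the same order 20318, 21426, 19823 and 19450 genes of any type had a count. The part of this class shift in the IL12A-AS1 level was not tested. In the double knockdown the class median was 0.26 against shControl, and IL12A-AS1 at 0.07 had 374 of the class above it. There 115 of the class (17.6%) were called higher and 48 (7.33%) lower, beside 7.1% and 5.99% of all genes. Relative to sh-c-Myc the class median was -0.39 in the double knockdown, a value that the same filter can lower. In that comparison 625 of 655 antisense genes stood above IL12A-AS1 at -1.63. By CPM, IL12A-AS1 ranked 30th of the class in the double knockdown, 4th in sh-c-Myc, 19th in sh-Bcl2 and 26th in shControl.

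Other genes with a named antisense gene were set beside this pair. Both genes passed 1 CPM in 232 of 637 listed pairs, IL12A and IL12A-AS1 included. In sh-c-Myc against shControl both genes were called higher in 18 pairs (7.76%) and both lower in 4 (SLC16A1, SPAG5, TONSL and DDX11). The sense gene was called lower and the antisense gene higher in 4 pairs (1.72%), and the reverse held in 1 (VPS9D1). Singly, 34.9% of the antisense genes were called higher and 6.90% of the sense genes lower. The filter of 1 CPM in any library can raise that antisense share too. The 4 pairs were IL12A, NIFK, SSSCA1 and LYRM4 with their antisense genes, the last 3 chosen for that pattern. Their sense genes stood at -2.98, -1.24, -1.35 and -1.12, and their antisense genes at 1.70, 1.10, 1.06 and 1.10. The SSSCA1-AS1 ratio rests on 26 counts against 11, with an interval of 0.03 to 2.26. In no pair was the sense gene lower than IL12A in either library with the c-Myc hairpin against shControl. IL12A was chosen by these ratios, so this place follows from the choice and is not a result. It also rests on few counts: the IL12A interval in sh-c-Myc, -4.6 to -1.85, includes TONSL at -2.19. In the double knockdown against shControl 0 pairs were opposed in either direction, 2 (LYST and RHPN1) had both genes higher and 5 (SLC16A1, TONSL, PRR7, ZBED3 and SH3RF3) both lower. Singly, 10 of the 232 sense genes were called higher and 12 lower, and 35 antisense genes higher and 20 lower. Of all genes 7.1% were higher and 5.99% lower, and nothing is read from these pair counts. The pairs named by direction were listed after their values were seen.

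Across the 232 pairs, which share libraries and depth, Pearson's r between sense and antisense log2 ratios was 0.35 and Spearman's rho 0.32 in sh-c-Myc against shControl, given as a description across gene pairs. Pairs that moved together were ranked by summed counts, which come mostly from the sense gene. LYST, a gene of lysosomal traffic, led them, at 1.26 for the sense and 1.68 [0.31 to 3.56] for the antisense gene in sh-c-Myc. LYST-AS1 had 19 counts in sh-c-Myc and 5 in shControl. Next were GAS6, a ligand of TAM receptors (1.49 and 1.94), and TONSL, a replication-coupled repair gene (-2.19 and -3.77 [-9.70 to -1.65]). TONSL-AS1 had 1 count in sh-c-Myc and 18 in shControl. CFLAR, an inhibitor of caspase-8 activation, stood at 1.47 with CFLAR-AS1 at 2.33 [0.75 to 4.92], and HOMER3 at 1.60 with HOMER3-AS1 at 3.17 [2.14 to 4.62].

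**Figure D4:**
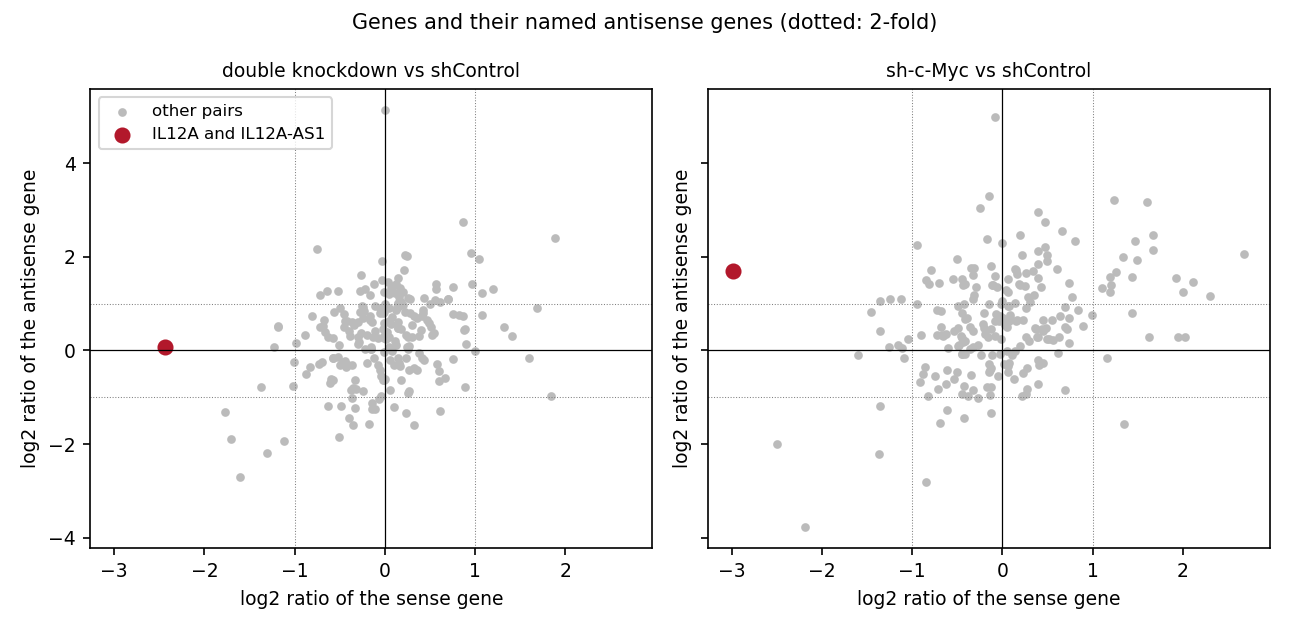
Log2 ratios of 232 genes (x axis) and of their named antisense genes (y axis) in the double knockdown (left) and sh-c-Myc (right) against shControl, 1 point per pair, with dotted lines at 2-fold. IL12A with IL12A-AS1 (red), chosen by these ratios, stands at the far left of both panels. On the y axis it is at 0.07 in the double knockdown and at 1.70 in sh-c-Myc.

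Among the ligand subunits that share partners with p35, EBI3, the partner in interleukin-35, was higher in sh-c-Myc, where IL12A was low. It had 22 counts in the double knockdown, 57 in sh-c-Myc, 20 in sh-Bcl2 and 14 in shControl. It was called higher in sh-c-Myc against shControl at a log2 ratio of 1.84 [1.02 to 2.84] and lower in the double knockdown than in sh-c-Myc at -1.36 [-2.16 to -0.64]. Its level stood apart in the same library as that of IL12A-AS1. IL23A, the p19 chain of interleukin-23, had 122, 157, 59 and 100 counts in the double knockdown, sh-c-Myc, sh-Bcl2 and shControl, and was called in sh-c-Myc against sh-Bcl2 alone, at 1.36 [0.93 to 1.83]; with total counts it was also called in the double knockdown over sh-Bcl2, at 1.06. IL27, the EBI3 partner in interleukin-27, had 1 count in sh-Bcl2 and 0 in the other 3 libraries, where 3 counts, or 0.192 to 0.213 CPM, are the one-sided limit that a count of 0 allows. IL12B, which encodes p40, is not among the genes listed, so no level of it is given here. Per length, as FPKM, the order in the double knockdown was IL23A at 6.63, EBI3 at 1.11 and IL12A at 0.285, and in sh-c-Myc IL23A at 9.17, EBI3 at 3.08 and IL12A at 0.204. In sh-Bcl2 it was IL23A at 3.17, IL12A at 1.44 and EBI3 at 0.993, and in shControl IL23A at 5.68, IL12A at 1.52 and EBI3 at 0.735; the counting intervals of IL12A and EBI3 overlapped in these last libraries.

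Of 5 receptor genes, 3 passed 1 CPM. IL12RB1, the chain that binds p40, had 58 counts in the double knockdown, 86 in sh-c-Myc, 117 in sh-Bcl2 and 109 in shControl. It was called lower in the double knockdown against shControl at -1.05 [-1.55 to -0.59], a call lost with total counts, at -0.97. Of all genes 5.99% were called lower in that comparison, and with 3 genes nothing is read from 1 call. IL12RB2, which recruits STAT4, had 1 count in each of sh-c-Myc and shControl and 0 in the double knockdown and sh-Bcl2, and IL23R had at most 3. IL6ST, the gp130 chain shared by many cytokine receptors, had 633, 607, 394 and 321 counts in the double knockdown, sh-c-Myc, sh-Bcl2 and shControl and was not called. IL27RA had 362, 329, 314 and 389 counts in that order and was not called.

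**Figure D5:**
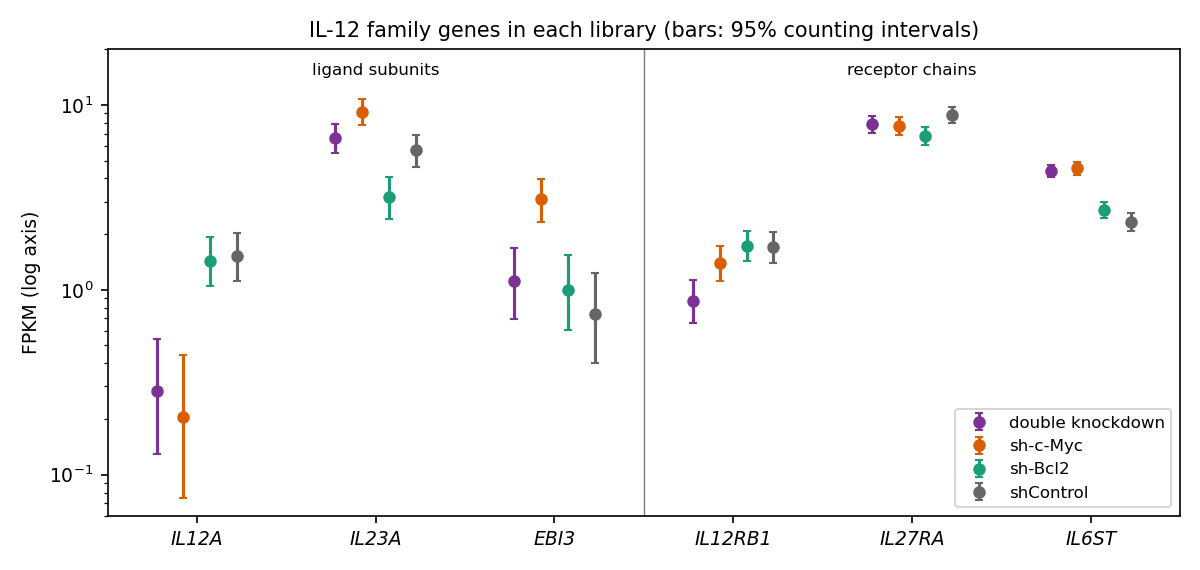
FPKM (log y axis) of 3 ligand subunit genes and 3 receptor genes of the interleukin-12 family in the 4 libraries, with 95% counting intervals. IL12A is at 0.285 in the double knockdown and 0.204 in sh-c-Myc, against 1.44 in sh-Bcl2 and 1.52 in shControl, and EBI3 is highest in sh-c-Myc at 3.08.

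Downstream of the receptors, 12 of 12 genes of the JAK-STAT list passed 1 CPM, with median log2 ratios to shControl of 0.25 in the double knockdown, 0.39 in sh-c-Myc and 0.20 in sh-Bcl2. SOCS1, a feedback inhibitor of JAK kinases, was called higher in the double knockdown at 1.24 [0.93 to 1.57] (303 counts against 115 in shControl). It was also called higher in sh-c-Myc at 1.37 and in sh-Bcl2 at 1.00 [0.68 to 1.34]. In each comparison it was the 1 gene of 12 called higher. Of all genes 7.1% were called higher in the double knockdown, 12.5% in sh-c-Myc and 2.45% in sh-Bcl2. The 1 of 12 is near the shares of the double knockdown and sh-c-Myc and above that of sh-Bcl2, and nothing is read from 1 gene. STAT4, the main transducer of interleukin-12, was called lower in sh-Bcl2 at -2.65 [-5.23 to -1.09], where 2.16% of all genes were called lower and 2.45% higher, with 17, 20, 3 and 20 counts in the double knockdown, sh-c-Myc, sh-Bcl2 and shControl. The receptor-bound kinase gene TYK2 (328, 406, 272 and 298 CPM in the same order) and the phosphatase gene PTPN6 (359, 351, 271 and 309 CPM) were not called.

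Genes known as targets of interleukin-12 in lymphocytes, or of the interferon-gamma it induces, were sparse: 10 of 14 were listed and 6 passed 1 CPM. In the double knockdown 0 of 6 were called higher and 1 lower, in sh-c-Myc 1 higher and 2 lower, and in sh-Bcl2 0 in each direction, beside shares over all genes of 7.1% and 5.99% in the double knockdown, 12.5% and 9.86% in sh-c-Myc and 2.45% and 2.16% in sh-Bcl2. The chemokine gene CXCL11 had 10 counts in the double knockdown, 7 in sh-c-Myc, 41 in sh-Bcl2 and 28 in shControl, an order of libraries with both c-Myc hairpin libraries low, like IL12A. Over shControl, its log2 ratio was -1.59 [-2.84 to -0.55] for the double knockdown and -2.07 [-3.59 to -0.92] for sh-c-Myc. The perforin gene PRF1 was called lower in sh-c-Myc at -1.59 [-2.84 to -0.55], and IL18RAP, an interleukin-18 receptor chain, higher at 1.63 [1.32 to 1.95]. The receptor gene IL18R1 (0.04 in the double knockdown and 0.30 in sh-c-Myc) and the guanylate-binding protein gene GBP2 (-0.04 and 0.28) were not called.

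Of the sensors and adaptors that induce IL12A in myeloid cells, 14 of 20 passed 1 CPM and 0 were called lower in any comparison with shControl, where 5.99% of all genes were lower in the double knockdown, 9.86% in sh-c-Myc and 2.16% in sh-Bcl2; 0 of 14 is near those shares. In the double knockdown 2 were called higher (median 0.23), in sh-c-Myc 2 (median 0.17) and in sh-Bcl2 0 (median 0.14), beside 7.1%, 12.5% and 2.45% of all genes. TLR4, the receptor for bacterial lipopolysaccharide, had 124 counts in the double knockdown, 191 in sh-c-Myc, 68 in sh-Bcl2 and 37 in shControl, with log2 ratios to shControl of 1.58 [1.05 to 2.17], 2.21 [1.71 to 2.77] and 0.77 [0.18 to 1.39]. TLR1 was called higher in the double knockdown at 1.14 and TLR6, which like TLR1 pairs with TLR2, in sh-c-Myc at 1.34. With total counts TLR1 was also called higher in sh-c-Myc, at 1.17. The kinase gene IRAK1 stood at -0.44 in the double knockdown and -0.60 in sh-c-Myc, and IFNGR1, a receptor chain for interferon-gamma, at 0.36 and 0.35, none of them called.

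Of the transcription factors on that route, 17 of 18 passed 1 CPM, with 2 higher and 2 lower in the double knockdown (median -0.09), 2 higher and 1 lower in sh-c-Myc (median 0.01) and 0 called in sh-Bcl2 (median -0.25). These counts are near the shares of all genes, 7.1% higher and 5.99% lower in the double knockdown and 12.5% and 9.86% in sh-c-Myc. BATF3, a factor of cross-presenting dendritic cells that make interleukin-12, had 57 counts in the double knockdown, 99 in sh-c-Myc, 219 in sh-Bcl2 and 329 in shControl, with log2 ratios to shControl of -2.67 [-3.11 to -2.27], -1.87 [-2.22 to -1.55] and -0.69 [-0.94 to -0.44]. Both libraries with the c-Myc hairpin were below both without it, as for IL12A. Higher were IRF7, at 1.03 in the double knockdown and 1.21 in sh-c-Myc, IRF5, at 1.32 in the double knockdown (and, with total counts, at 1.11 in sh-c-Myc), and JUN, at 1.09 in sh-c-Myc. The other factor called lower in the double knockdown was ATF3, at -1.09, named after its value was seen. IRF8, which with IRF1 activates the p35 promoter, was at 817, 677, 743 and 749 CPM and SPI1, the PU.1 gene, at 197, 252, 139 and 173 CPM in the double knockdown, sh-c-Myc, sh-Bcl2 and shControl, neither called.

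Of 20 other cytokine genes of myeloid cells, 10 passed 1 CPM, with 1 called higher and 0 lower in the double knockdown (median 0.59), 1 higher and 2 lower in sh-c-Myc (median 0.17) and 3 higher and 0 lower in sh-Bcl2 (median 0.56). Over all genes the shares higher and lower were 7.1% and 5.99%, 12.5% and 9.86%, and 2.45% and 2.16% in these comparisons, and with 10 genes nothing is read from the counts. TNF and the neutrophil chemokine gene CXCL8 were low in sh-c-Myc: TNF was at 18.5 CPM in the double knockdown, 3.08 in sh-c-Myc, 38.1 in sh-Bcl2 and 10.1 in shControl, and CXCL8 at 21.4, 2.95, 26.2 and 11.9 CPM. IL16, a CD4 ligand gene, was called higher in the double knockdown at 1.50 and in sh-c-Myc at 1.49. LTB, the lymphotoxin-beta gene, was called higher in sh-Bcl2 at 1.07. TGFB1 stood at 0.42 in the double knockdown and 0.46 in sh-c-Myc, and CCL5 at -0.92 and -0.89, none of them called.

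Likeness to the IL12A pattern was measured as the root mean square difference of log2 CPM over the 4 libraries, each gene centred on its own mean. The IL12A counts are low, so this likeness is a description. The nearest 8 of 13645 genes were TRIM16L, SLC38A5, HSD11B1, SLC7A2, PRDM13, PHKA1, AC112777.1 and POLR3G, at differences of 0.08 to 0.15. SLC38A5, an amino acid transporter gene, had 289 counts in the double knockdown, 199 in sh-c-Myc, 1200 in sh-Bcl2 and 1122 in shControl. SLC7A2, a cationic amino acid transporter gene, had 279, 250, 1177 and 1304 counts, and POLR3G, a subunit of RNA polymerase III, 181, 103, 594 and 602 counts in the same order. All 8 were lower in both libraries with the c-Myc hairpin than in both without it. That order follows from their choice by likeness to IL12A in the same libraries and is not a result. IL12A-AS1 ranked 12662nd in likeness to IL12A. The nearest genes to the IL12A-AS1 pattern were LINC01132, AC245052.4, LINC00893, AC006128.1, PSD3, AC135050.5, AC245100.7 and PRAF2, none of them above 82 counts in any library, and C3orf80 ranked 75th at 0.23.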

How the data were processed

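The authors deposited 1 table that gives, for each gene and each of the 4 libraries, a raw count and an FPKM. HISAT2 (no version stated), HTSeq 0.13.5 and GRCh38 are named, per the submitters' processing notes; the sources used here give no annotation release and no strand setting. The gene lengths that the deposited FPKM imply equal merged GENCODE 29 exons within 0.5 base for 99.7% of genes. Per the labels' protocols, selection used 0.5 µg/ml puromycin or 600 µg/ml G418, and 1.5 µg of RNA went into each library.

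TMM factors (edgeR 4.0.16) scaled counts to CPM. Log2 ratios (prior count 0.5) have exact conditional binomial 95% intervals, levels exact Poisson intervals, and departures from additivity delta-method intervals; all cover counting error only. With 1 library per group there is no test. The call rule was checked on simulated counts. Alternatives were DESeq2 1.42.0 size factors, total counts, upper quartile factors, other priors, filters and folds, FPKM + 0.1, and removal of a trend on GC content and length. Genes named are the members, the targeted genes, every family subunit and receptor, up to 4 called and 2 uncalled genes per other list, the 8 most like IL12A, neighbours above 1 CPM and the leading antisense pairs; those most like IL12A-AS1, and the opposed pairs, were added after their values were seen. The members and lists were chosen with earlier results of these data known.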

Additional observations from a re-analysis of the deposited data

Results flagged for a closer look

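With 1 library per group, a difference between backgrounds cannot be tested, and the following pairs of log2 ratios have opposite signs. The c-Myc hairpin went with a ratio of 1.70 for IL12A-AS1 without the Bcl-2 hairpin (sh-c-Myc against shControl) and of -0.13 [-0.36 to 0.10] with it (double knockdown against sh-Bcl2). The Bcl-2 hairpin went with a ratio of 0.20 [-0.04 to 0.44] for IL12A-AS1 without the c-Myc hairpin (sh-Bcl2 against shControl) and of -1.63 with it (double knockdown against sh-c-Myc). For IL12A the Bcl-2 hairpin went with -0.10 without the c-Myc hairpin and 0.54 with it, and both intervals include 0. The intervals of -0.13 and 0.20 include 0 as well, so 1 sign of each IL12A-AS1 pair is undetermined. None of these differences was tested.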

How the results depend on the processing

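All 84 alternative values of the IL12A and IL12A-AS1 ratios and departures lay inside the counting interval of the reported value, and no called ratio changed sign. For sh-c-Myc against shControl they ran from -3.00 to -2.41 for IL12A and from 1.64 to 1.89 for IL12A-AS1, and for the double knockdown against shControl from -2.46 to -2.07 and from -0.02 to 0.17. The IL12A-AS1 ratio near 0 in the double knockdown took either sign within that range. Counts of called genes depended on the fold and the filter. In the order double knockdown, sh-c-Myc and sh-Bcl2 against shControl, then the double knockdown over sh-c-Myc and over sh-Bcl2, then sh-c-Myc against sh-Bcl2, the reported counts were 1786, 3052, 629, 868, 1206 and 2686. A threshold of 1.5-fold gave 3856, 5502, 1389, 2050, 2901 and 5064, and a mean of at least 50 counts gave 996, 1872, 163, 213, 561 and 1576, by construction more and fewer genes. Without a filter the double knockdown over sh-c-Myc gave 1335. Pairs with the sense gene lower and the antisense gene higher in sh-c-Myc numbered 2 under the 50-count filter and 4 without it, since IL12A (mean 26.8 counts) and SSSCA1-AS1 (5 to 26 counts per library) do not pass that filter. By Pearson correlation in place of distance, 1 of the 8 genes most like IL12A stayed among the nearest 8; the cause was not tested. With upper quartile factors or total counts the share of calls in the higher direction was 64.4% or 64.0%, against 54.3%, in the double knockdown against shControl, 70.7% or 71.0%, against 55.9%, in sh-c-Myc, 70.0% or 72.0%, against 58.1%, in sh-c-Myc against sh-Bcl2, and 17.0% or 16.2%, against 26.2%, for the double knockdown over sh-c-Myc. No paired analysis was possible because each group has 1 library. Counts of 9 and 6 leave the IL12A ratios uncertain over a range of several fold, and variation between replicates was not measured.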

Other observations

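Head-to-head gene pairs were examined after the C3orf80 values had been seen. Of 740 pairs of genes above 1 CPM with starts within 1000 bases on opposite strands, 276 had at least 1 gene called in sh-c-Myc against shControl, and both genes were called higher in 10, both lower in 9 and in opposite directions in 8. Of all genes 22.4% were called in that comparison, 12.5% higher and 9.86% lower, and nothing is read from the number of pairs. The 10 included IL12A-AS1 with C3orf80, GAS6 with GAS6-DT, RHPN1-AS1 with RHPN1 and RBP5 with CLSTN3. Both genes of 1 of the 10 pairs, IL12A-AS1 with C3orf80, were also called lower in the double knockdown than in sh-c-Myc. Of all genes 4.7% were called lower in that comparison. The 10 pairs were picked for high values in sh-c-Myc, which favours lower values against it. The place of this pair also depends on the threshold. AC093627.5 with AC093627.4 stood at log2 ratios of -1.0, not called, and -1.26, called. Nothing is read from this count. Across the 740 pairs, as a description, Pearson's r between log2 ratios was 0.15 in the double knockdown and 0.12 in sh-c-Myc against shControl.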
